A study of Bos taurus with 5 samples.

Results

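The 136 transcripts described here carried TCONS assembly names in place of annotation identifiers, and made up 1.02% of the 13391 transcripts in the deposited table. They were chosen by that name alone. The rule also set aside very abundant genes of chromosome 2, and no member lay in one. RNA came from the longissimus dorsi, a long back muscle, of 5 Jiaxian Red cattle at 18 months of age, with 1 library for each animal. The libraries formed 1 group with no treatment and no control, so levels were compared within libraries and their spread was taken over the 5 animals. The values were FPKM, an estimate of sequenced fragments per transcript corrected for its length and for the size of the library.

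Programs that assemble transcripts join overlapping sequenced fragments into models and compare the models with a gene annotation. Models that match no annotated transcript get names of their own. Such models can be unlisted isoforms, stretches of introns or of long untranslated ends, long noncoding RNAs, expressed pseudogenes or whole genes that an annotation lacks. The prefix TCONS marks a transcript and XLOC the locus it belongs to, in the style of the Cufflinks programs.

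The 5 libraries expressed the markers of skeletal muscle, with 8 of 9 listed and a summed level of 18567 to 21944 FPKM. Markers of other cells were lower: 3 of 6 fibroblast genes summed to 394 to 845 FPKM, highest in libraries 1 and 4. The 5 endothelial genes summed to 77.9 to 90.3 FPKM, the 4 smooth muscle genes to 34.2 to 86.9 and 3 of 4 leukocyte genes to 121 to 205, highest in library 1. No fat cell marker was listed, and the single listed red cell marker stayed between 0.253 and 3.09 FPKM. Summed FPKM per library ran from 193706 to 223251, and the table held no counts, so the read depth behind each value is unknown. Pairs of libraries correlated with r of 0.876 to 0.910 across transcripts at a mean of 1 FPKM or more, and no 2 libraries had the same value above 0 for a transcript. In such tissue samples, fewer cells of a type and less RNA per cell cannot be told apart.

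Most assembled transcripts were scarce. A mean of 1 FPKM or more was reached by 55 of 136 (40.4%), beside 56.1% of the 13255 annotated transcripts. Only 3 (2.21%) reached 10 FPKM, beside 16.2% of the annotated ones, and the median of the means was 0.841 against 1.40 FPKM. In at least 1 library, however, 101 members (74.3%) stood at 1 FPKM or above, beside 68.2% of annotated transcripts, whereas in every library only 19 (14.0%) did, beside 42.3%. Members at the limit in some animals were thus often below it in others. At least 1 value of exactly 0 was listed for 41 members (30.1% against 19.4%), and none was at 0 in all 5 libraries. The limit of 1 FPKM decides the count: the lowest mean in the set was 0.138 and the highest 35.6 FPKM.

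As a share of all summed FPKM the set held 0.132%, 0.125%, 0.0883%, 0.0845% and 0.0980% in libraries 1 to 5. Libraries 1 and 2 were thus the highest, and the mean was 0.105% ± 0.0215 (SD, n = 5). The most abundant member gave 16.4% of the set's sum, and the top 10 gave 44.2%. Without the most abundant member libraries 1 and 2 were still the highest, at 0.109% and 0.105%, against 0.0722% to 0.0805% in the others.

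The assembled loci fell into 87 gene identifiers. XLOC identifiers covered 113 members in 69 loci. The other 23 members had been assigned to 18 Ensembl genes, 4 of them with names of RNA families (RF names) and 1 with the date 10-Mar as its gene name, the form into which spreadsheets turn a symbol of the MARCH family. A single member was found for 62 identifiers, and 25 identifiers held 74 members, up to 8 in 1 locus.

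Where the members lay in the genome was compared with a RefSeq gene table of the assembly ARS-UCD2.0. The submitters' processing notes name UMD3.1, so the nearest genes with a symbol, 2 on each side, of the 122 members on chromosomes were used as anchors, and 482 of 484 anchors lay at the same place in both. Coordinates below are those of the deposited table, with no build claimed. A RefSeq protein-coding gene covered at least 50% of the span of 75 members (55.1%), in 47 genes. A RefSeq long noncoding RNA covered 14 members, a pseudogene 4, and no gene covered that much of the span of 29. The other 14 lay on unplaced scaffolds, pieces of assembly not tied to a chromosome, and were not checked against RefSeq.

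Of the 75 members inside protein-coding genes, 41 lay in 25 genes with no other row in the table. Members were placed by overlap of spans, with neither strand nor exons compared, so a member need not be a transcript of that gene. By comparison, 34.8% of the 21666 RefSeq protein-coding genes were in the table under their symbol. For 24 members the gene itself was listed (17 genes), and for 10 members (5 genes) it was present only as rows without a symbol. Among the 17 Ensembl-identified members inside protein-coding genes, 8 lay in a RefSeq gene of another name than the table's. Reads of an assembled transcript and of a gene that overlaps it, on either strand, cannot be told apart in these values, since no source used here says how they were divided.

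The set was spread unevenly over the chromosomes. The X chromosome held 16 members (11.8% against 3.18% of annotated transcripts), chromosome 18 held 15 (11.0% against 4.10%) and unplaced scaffolds 14 (10.3% against 0.332%). Transcripts of 1 locus count separately here: XLOC_144383 gave 8 of the scaffold members and XLOC_051139 gave 5 of those on chromosome 18. Shares per locus are not given. No member was mitochondrial. Few spans were short: only 1 was under 5000 bp (0.735% against 12.9%). The median span was 42762 bp against 37469 bp, but the upper quartile was 89172.5 bp against 94990 bp. The median gap to the nearest annotated gene of another identifier was 59409 bp, against 24443.5 bp for annotated transcripts. Members beyond 100000 bp from any such gene numbered 48 (35.3% against 20.5%). Of the 136 members 12 overlapped one, beside a similar 8.30% of annotated transcripts.

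**Figure D1:**
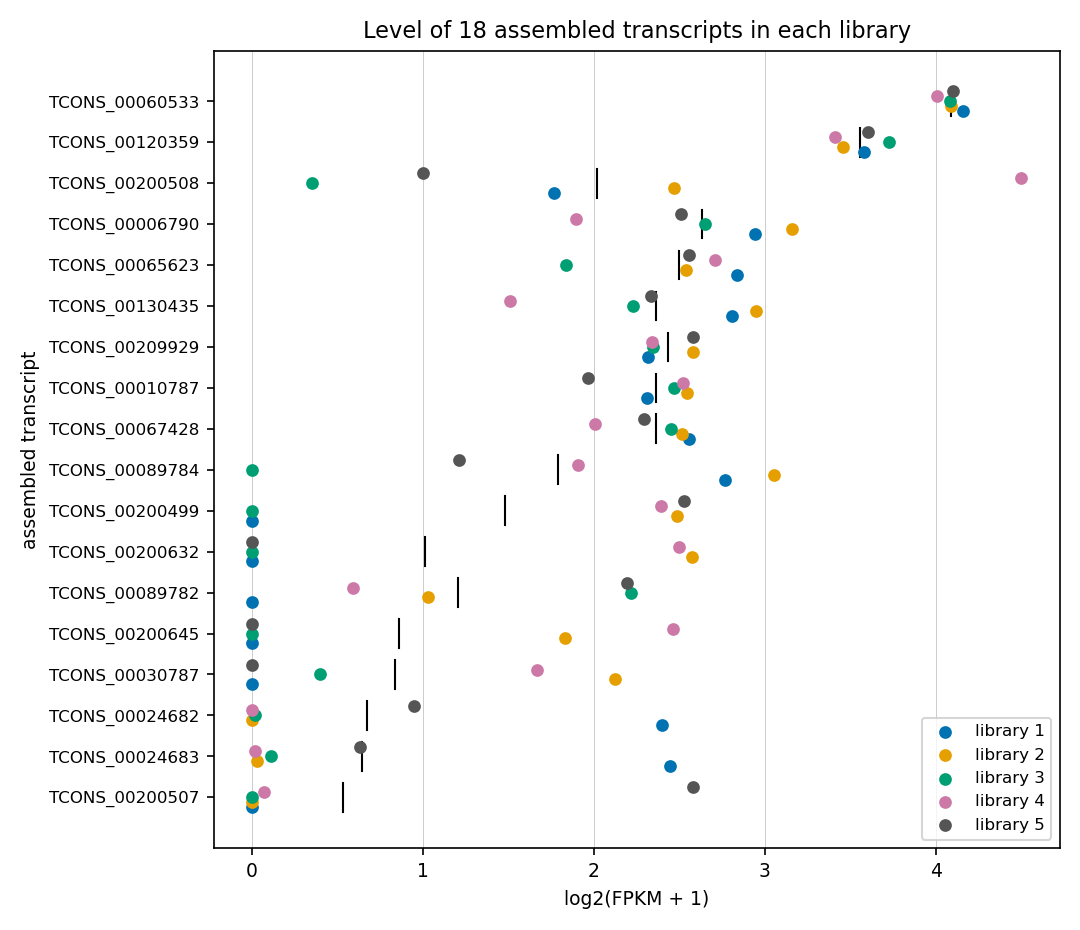
Level of 18 assembled transcripts, as log2(FPKM + 1) on the horizontal axis, with 1 point per library and a black bar at the mean. The top 2 rows are tight, with TCONS_00060533 between 15.1 and 16.8 FPKM, while the lower rows have points at 0 and points above 2 on the log2 scale.

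The steadiest abundant member was TCONS_00060533 (chr16:67392950-67461379), which the table names PRG4, the joint lubricant lubricin. Of its span, 92.8% lay in TPR, which encodes a protein of the nuclear pore basket and had no row of its own. Its level was 16.8, 16.003, 15.98, 15.1 and 16.2 FPKM, with an SD of 0.053 on the log2 scale. No library departed from the others. The nearest gene, ODR4, stood at 5.69, 7.50, 5.73, 4.90 and 4.93 FPKM, below the assembled transcript in 5 of 5 libraries (difference 1.347, SE 0.13, limma adjusted p = 4.03e-05).

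TCONS_00120359 (XLOC_085596, chr25:36387562-36395359) lay in ZSCAN21, a zinc finger transcription factor gene with no row in the table. It had 11.0, 9.999, 12.3, 9.64 and 11.2 FPKM. Its neighbour ZKSCAN1, another zinc finger gene, had 12.3, 11.6, 13.8, 10.4 and 12.2 FPKM. The assembled transcript was slightly lower in all 5 libraries and followed the same order at both ends, highest in library 3 and lowest in library 4. The difference of -0.14 (SE 0.10) did not pass the test (limma adjusted p = 0.231).

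Further members lay, by overlap of spans, in genes that the table did not list otherwise. UBQLN2, a shuttle that brings ubiquitinated proteins to the proteasome, was represented by TCONS_00209929 (chrX:93546446-93552598) at 3.99, 4.97, 4.08, 4.06 and 4.97 FPKM. The libraries differed little (SD 0.13 on the log2 scale), and the nearest gene, the transcription factor gene KLF8, stayed at 0.0867 to 0.336 FPKM. TCONS_00065623 (XLOC_048253, chr17:51718119-51756431), in the RefSeq gene LOC101904642, had 6.16, 4.82, 2.58, 5.54 and 4.89 FPKM, with library 3 lowest. PLCB3, a phospholipase C, was the RefSeq gene over TCONS_00132946, which had 3.61, 3.54, 4.10, 4.40 and 4.32 FPKM. This member and the next 3 fell outside the naming rule and were picked after their values were seen. IMMP2L, a subunit of the inner membrane peptidase of mitochondria, was the RefSeq gene over TCONS_00148527, which the table names LRRN3. That transcript had 5.53, 4.44, 4.47, 1.38 and 3.82 FPKM, with library 4 lowest. VAMP3, a SNARE protein of recycling vesicles, was the RefSeq gene over TCONS_00059064. That member had 4.52, 3.92, 3.81, 3.44 and 1.81 FPKM, with library 5 lowest. NAP1L1, a histone chaperone, covered 69.9% of the span of TCONS_00160372, which had 3.95, 3.19, 4.08, 2.49 and 2.38 FPKM. The same class held single lower members in the clock gene PER3, the collagen gene COL19A1 and the zinc finger genes ZNF148 and ZNF461.

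Inside genes that the table did list, a single assembled transcript was usually below the sum of the gene's listed rows. Of 24 such members, in 17 genes, 18 were below that sum in 5 of 5 libraries and 2 were above in 5 of 5. Some genes had several listed rows, which favours the sum, and some held several members, so the 24 are not separate cases. No matching share was taken for annotated transcripts. TCONS_00006790 (XLOC_005217, chr1:59731740-59771520) lay in ZBTB20, a transcriptional repressor, and had 6.69, 7.95, 5.28, 2.73 and 4.70 FPKM. The ZBTB20 row itself held 18.5, 21.2, 18.0, 19.8 and 20.0 FPKM, so the drop of the assembled transcript in library 4 had no counterpart there. TCONS_00130435 (chr28:23351445-23576515), named LRRTM3 in the table, lay wholly in CTNNA3, which encodes an alpha-catenin of cell junctions. It had 5.999, 6.72, 3.69, 1.85 and 4.04 FPKM, beside 25.9, 31.7, 23.4, 19.3 and 28.1 FPKM for CTNNA3, and both were highest in library 2 and lowest in library 4. The difference from CTNNA3 was -2.35 (SE 0.16, limma adjusted p = 7.2e-06).

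GSE1, which encodes a coiled-coil protein, held 1 of the 2 members above their gene. TCONS_00067428 (XLOC_049386, chr18:11252855-11402507) had 4.89, 4.72, 4.46, 3.02 and 3.91 FPKM. The GSE1 rows summed to 3.04, 2.99, 4.004, 2.44 and 3.02 FPKM, lower in 5 of 5 libraries. The difference of 0.34 (SE 0.12) passed at a limma adjusted p of 0.0328, but the call was lost without library 1 (0.0804), without library 2 (0.0963) and without library 5 (0.0688). The other such member, of the kinesin gene KIF4A, stayed under 1 FPKM in every library.

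Of the 14 members in long noncoding RNA genes only 1 had a mean of 1 FPKM or more, and the median of their means was 0.476 FPKM. The other classes were higher: 33 of 75 reached that level in protein-coding genes (median 0.876 FPKM), 11 of 29 with no RefSeq gene over 50% of the span (median 0.852 FPKM) and 3 of 4 in pseudogenes. TCONS_00010787 (XLOC_008256, chr1:157572417-157628043) lay in the pseudogene LOC107131289 and had 3.97, 4.84, 4.55, 4.74 and 2.91 FPKM, lowest in library 5. Its nearest listed gene, SGO1, a guardian of sister chromatid cohesion, was at 0.0763 to 0.278 FPKM. The single long noncoding member above the limit was TCONS_00109591 (chr23:3162199-3174275) in LOC104975635, with 2.69, 3.81, 2.21, 1.80 and 3.47 FPKM, while its neighbour BEND6 stayed at 0.0934 to 0.215 FPKM. Of members with no RefSeq gene over 50% of the span the highest was TCONS_00206035 (XLOC_148970, chrX:109652109-109831272), with 2.73, 4.13, 1.001, 0.318 and 2.70 FPKM. The nearest row of the table was ENSBTAG00000046838, at 0.0649 to 0.204 FPKM. The RefSeq gene that overlapped that row most was DMD, the dystrophin gene.

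The locus XLOC_118940 (chr6:43013981-43102111) held 6 assembled transcripts, all in the long noncoding RNA LOC104972733, and its nearest listed gene was PPARGC1A, a coactivator of mitochondrial biogenesis. None of the 6 reached a mean of 1 FPKM, but the locus summed to 4.77, 6.56, 1.83, 2.49 and 3.04 FPKM. PPARGC1A had 3.48, 3.47, 1.38, 1.25 and 0.316 FPKM. Libraries 1 and 2 were the highest in both, and the lowest was library 3 for the locus and library 5 for PPARGC1A.

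The next comparison asked whether an assembled transcript was more or less abundant than its nearest annotated gene. The log2(FPKM + 1) difference within each library was tested with limma for every transcript of the table whose mean with its neighbour averaged 1 FPKM or more. Over the table, 32.4% of 10689 transcripts were called higher and 54.3% lower. Of 101 members tested, 10 were called higher, 83 lower and 8 neither, with a median difference of -1.78 beside -0.92 over the table. A member under 1 FPKM entered this test only through an abundant neighbour, and 51 of 54 such members were called lower, which the filter itself favours. Of the 47 tested members with a mean of 1 FPKM or more, 10 were higher (21.3%) and 32 lower (68.1%). Annotated transcripts at that level were called higher in 48.8% and lower in 33.0%. The shares are not matched by level: 10 FPKM was reached by 2144 of 7431 annotated transcripts above the limit, against 3 of 55 members. The filter left out 8 members at 1 FPKM or more because their neighbours were low, 5 of them above the neighbour in 5 of 5 libraries. By levels alone, 15 of the 55 members at 1 FPKM or more were above the neighbour in 5 of 5 libraries, 29 below in 5 of 5 and 11 mixed. With no filter, 22 of 136 members were called higher and 85 lower. With neighbours within 10000 bp only, 4 of 24 were higher and 17 lower. No share over the whole table is given for these settings, so the counts show only how the members' calls moved. The split of the members was not itself tested against that of the annotated transcripts.

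The 10 members called higher were those in ZBTB20, LOC107131289, VAMP3, TPR, LOC101904642, GSE1, LOC104975635, LOC112445193 and UBQLN2, and TCONS_00206035, which no RefSeq gene overlapped. Each was above its neighbour in 5 of 5 libraries. The VAMP3 member exceeded CAMTA1, a calmodulin-binding transcription activator at 0.462 ± 0.213 FPKM (SD, n = 5), by 1.60 (SE 0.17, limma adjusted p = 7.06e-05). The LOC104975635 member exceeded BEND6 by 1.72 (SE 0.15, limma adjusted p = 2.53e-05). For the ZBTB20 member the difference was 2.59 (SE 0.20, limma adjusted p = 1.57e-05), but its nearest row by this rule was ENSBTAG00000047946, listed at 0 in 4 libraries and at 0.165 FPKM in library 5. Against neighbours with a symbol only, the direction turned to -1.72 (SE 0.20, limma adjusted p = 0.000117). Below its neighbour by a wide margin, TCONS_00124875 in SORBS2, a cytoskeletal adaptor, lay beside PDLIM3, a Z-disc protein gene at 603 ± 136 FPKM (SD, n = 5), with a difference of -7.86 (SE 0.28, limma adjusted p = 3.27e-07).

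**Figure D2:**
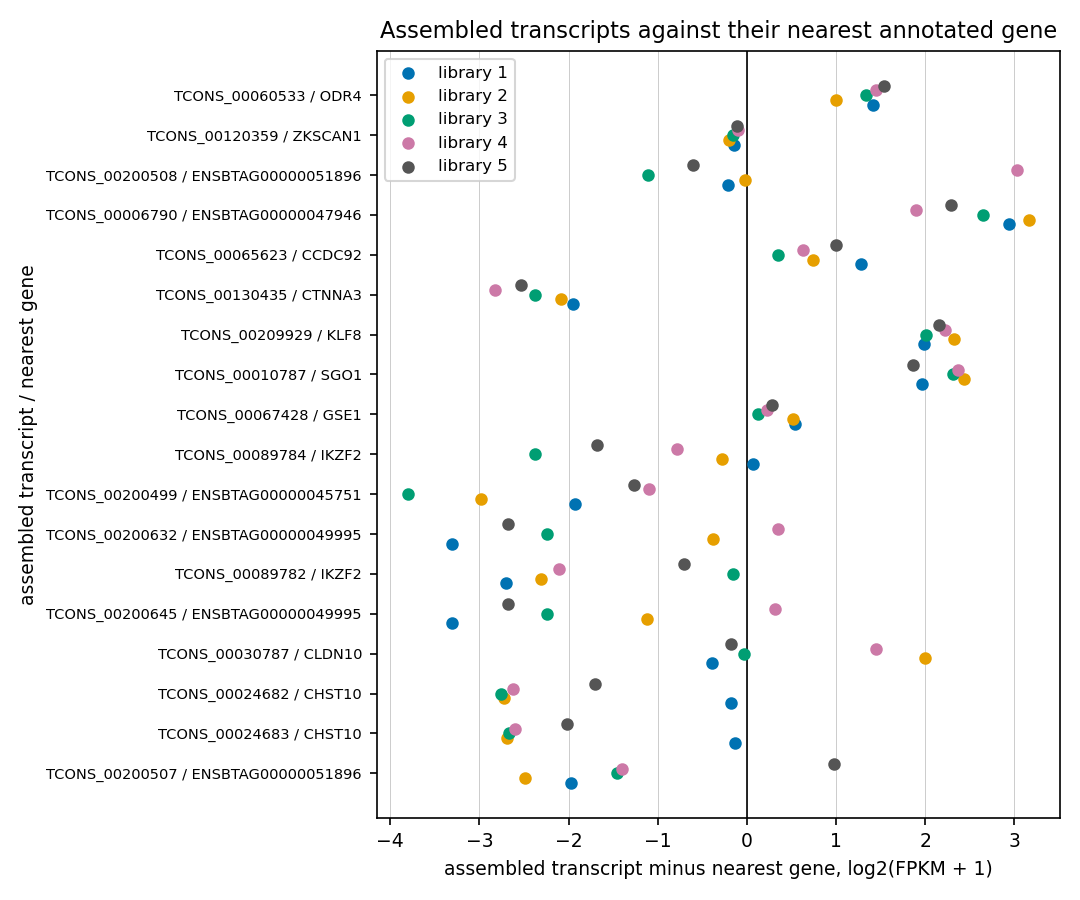
Difference in log2(FPKM + 1) between each of 18 assembled transcripts and its nearest annotated gene, with 1 point per library and zero marked by a line. The ODR4, KLF8 and SGO1 neighbours lie below their assembled transcript in all 5 libraries, and the transcripts of unplaced scaffolds have points far apart.

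Within a gene identifier, an assembled transcript could also be set against the sum of the gene's other listed transcripts. In the whole table, 27.3% of 5784 transcripts were called higher and 58.7% lower in this comparison. Of 55 members tested, 4 were higher, 33 lower and 18 neither. Of the 27 with a mean of 1 FPKM or more, 4 were higher (14.8%), 9 lower (33.3%) and 14 neither. Among annotated transcripts at that level, 43.8% were called higher and 36.0% lower, so the share called lower was similar. These shares are again not matched by level, and the splits were not tested against each other. As before, a member under 1 FPKM entered only where the rest of its gene was abundant. The 4 higher ones were the main transcripts of XLOC_048253 and XLOC_151149, the NAP1L1 member and the member named LRRTM3. That last transcript exceeded the annotated LRRTM3 transcript, at 0.255 FPKM, by 2.05 (SE 0.17, limma adjusted p = 4.9e-05). TCONS_00136583 was assigned to DAP3, a mitochondrial ribosomal protein, but lay in the histone methyltransferase gene ASH1L. It had 1.56, 1.21, 0.902, 1.26 and 1.11 FPKM, below the single listed DAP3 transcript (difference -1.24 on the log2 scale, SE 0.15, limma adjusted p = 0.00032).

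Assembled transcripts varied more between animals than annotated ones of similar level. For members at a mean of 1 FPKM or more, the SD of log2(FPKM + 1) between the 5 libraries had a median of 0.42, against 0.29 for the 7431 annotated transcripts there. From 1 to 1.5 FPKM the medians were 0.52 and 0.39, from 1.5 to 3 FPKM 0.68 and 0.37, and from 3 to 10 FPKM 0.38 and 0.28. The 3 members at 10 FPKM or more went the other way, at 0.13 against 0.24. An SD of 1 or more was found for 8 of 55 members (14.5% against 6.82%), and 11 of 55 had a 0 in some library (20% against 6.55%). Those shares are not matched by level, and 28 of the 55 members lay between 1 and 1.5 FPKM, where a 0 was listed for 21.4% of members and 18.5% of annotated transcripts. From 1.5 to 3 FPKM the shares with a 0 were 33.3% and 11.1%, and from 3 to 10 FPKM 8.33% and 4.14%, each over 12 members. These differences are descriptions and were not tested.

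The spread was uneven within the set. The 28 members at that level that were alone in their locus had a median SD of 0.31, and the 27 that shared a locus had 0.65. For annotated transcripts at that level the medians were 0.27 in genes with a single listed transcript and 0.325 in genes with several. A 0 in some library was listed for 11 of 62 members alone in a locus (17.7%) and for 30 of 74 that shared one (40.5%). Among annotated transcripts the shares were 17.7% and 20.8%.

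**Figure D3:**
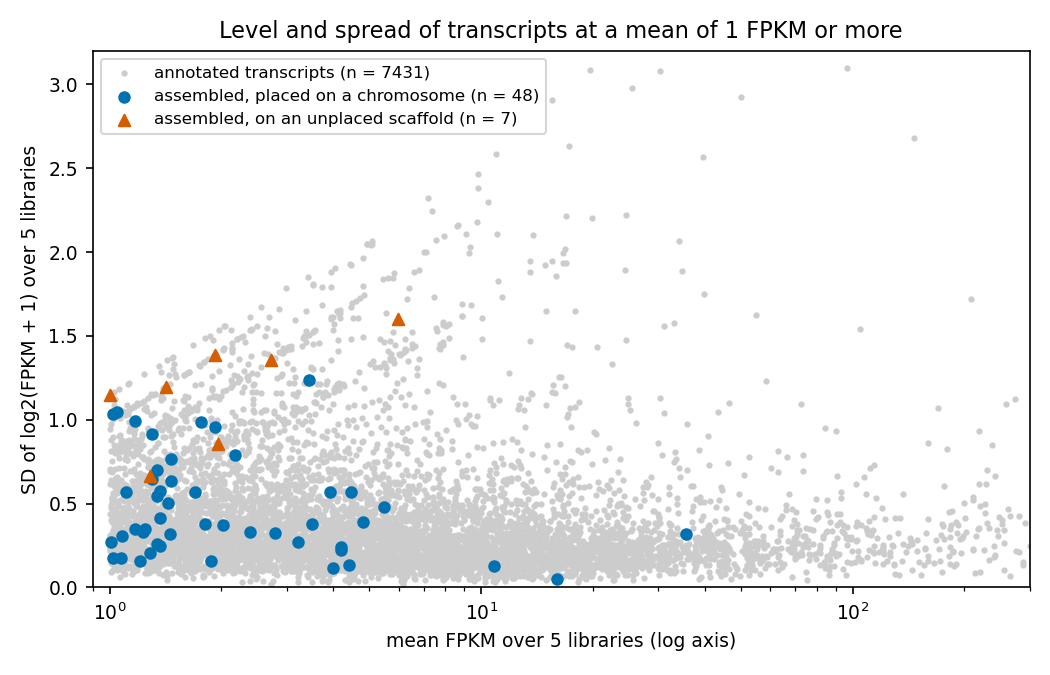
SD of log2(FPKM + 1) over 5 libraries against the mean FPKM on a log axis, for transcripts at a mean of 1 FPKM or more. Blue points are 48 assembled transcripts on chromosomes, orange triangles 7 on unplaced scaffolds, and grey points 7431 annotated transcripts, of which 62 lie outside the axes. The triangles sit high, and the 3 assembled transcripts beyond 10 FPKM sit low.

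In shared loci the most abundant member changed between libraries in 19 of 25 loci (76%). The leading transcript changed in 32.9% of the 2660 annotated genes with more than 1 listed transcript. At a summed mean of 1 to 10 FPKM the counts were 8 of 13 loci with 2 members, beside 29.1% of annotated genes with 2 transcripts, and 7 of 8 loci with 3 or more, beside 53.1%. These shares were not tested against each other. Steadiness was taken on log2(FPKM + 1), where the added 1 narrows the spread of low members more than that of their sum. On that scale the sum was steadier than its median member in 9 of 22 loci with a summed mean of 1 FPKM or more. XLOC_063979 (chr2:100420148-100507866) lay in ERBB4, the neuregulin receptor, and was such a locus. TCONS_00089784 had 5.82, 7.30, 0, 2.75 and 1.32 FPKM, and TCONS_00089782, of nearly the same span, had 0, 1.04, 3.66, 0.505 and 3.58 FPKM. The first led in libraries 1, 2 and 4 and the second in libraries 3 and 5. Their sum was 5.82, 8.34, 3.66, 3.26 and 4.90 FPKM, with an SD of 0.45 on the log2 scale against 1.24 and 0.98 for the transcripts. A second assembled locus in ERBB4, XLOC_063975 (chr2:100112645-100205189), divided the same way, with TCONS_00089764 leading in libraries 1, 2 and 4 and TCONS_00089763 in libraries 3 and 5. The listed ERBB4 transcripts summed to 9.33, 9.08, 7.65, 7.70 and 8.17 FPKM and varied little.

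XLOC_018084 (chr11:5448028-5490901) held 5 transcripts in LONRF2, a ring finger gene with no other row. The locus summed to 15.4, 0.799, 2.07, 0.174 and 4.25 FPKM. Library 1 stood far above the rest and was the highest for 4 of the 5 transcripts. The exception, TCONS_00024677, was highest in library 5, with 0.069, 0.138, 0, 0 and 0.832 FPKM. TCONS_00024682 had 4.28, 0, 0.014, 0 and 0.928 FPKM. TCONS_00024683, on the same span, had 4.44, 0.020, 0.080, 0.011 and 0.547 FPKM. The neighbour CHST10, a sulfotransferase, was even at 5.37 ± 0.370 FPKM (SD, n = 5).

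XLOC_022560 (chr12:71725897-71843704), in the RefSeq gene LOC100337053, was present mainly in libraries 2 and 4. Its 4 transcripts summed to 0, 7.43, 0.704, 5.46 and 0.554 FPKM, and TCONS_00030787 alone had 0, 3.36, 0.319, 2.18 and 0 FPKM. By contrast XLOC_051139 (chr18:58626737-58664770), with 5 transcripts, was even: its sum was 3.34, 3.42, 2.62, 3.08 and 3.32 FPKM, an SD of 0.12 on the log2 scale.

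The scaffold transcripts were the most variable class, with a median SD of 1.20 for the 7 at a mean of 1 FPKM or more. A 0 in some library was listed for 10 of 14 (71.4%). Of the 14, 8 belonged to the locus XLOC_144383 alone, so the transcripts are not separate cases. XLOC_144383 (scaffold NKLS02000910.1, from 254314 to 521631) held 8 transcripts that summed to 12.9, 12.2, 0.458, 29.5 and 16.4 FPKM. Library 4 was highest, and library 3 was nearly empty. Its main transcript, TCONS_00200508, had 2.40, 4.54, 0.273, 21.7 and 0.997 FPKM. TCONS_00200499 was listed at 0 in libraries 1 and 3 and had 4.60, 4.26 and 4.78 FPKM in libraries 2, 4 and 5. TCONS_00200507 had 4.98 FPKM in library 5, 0.049 in library 4 and 0 elsewhere. An annotated neighbour on that scaffold, ENSBTAG00000045751, varied too, at 2.81, 43.1, 13.0, 10.3 and 12.9 FPKM, but with other libraries at its ends. Another, ENSBTAG00000051896, had 2.94, 4.62, 1.75, 1.78 and 2.03 FPKM, lowest in library 3 like the locus but highest in library 2.

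Both assembled loci named here on the scaffold NKLS02001064.1 were listed only in libraries 2 and 4. TCONS_00200632 (XLOC_144500, from 172493 to 226673) had 4.95 and 4.64 FPKM there and 0 in the other 3. TCONS_00200645 (XLOC_144512, from 295649 to 372488) had 2.56 and 4.51 FPKM there and 0 in the other 3. Its partner TCONS_00200646 had 1.67 and 0.232 FPKM in the same libraries and 0 elsewhere. The annotated gene nearest to them, ENSBTAG00000049995, was listed in all 5, at 8.93, 6.72, 3.74, 3.41 and 5.42 FPKM. These loci and XLOC_022560 on chromosome 12 therefore shared a pattern of higher values in libraries 2 and 4, which was picked out after the values were seen.

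**Figure D4:**
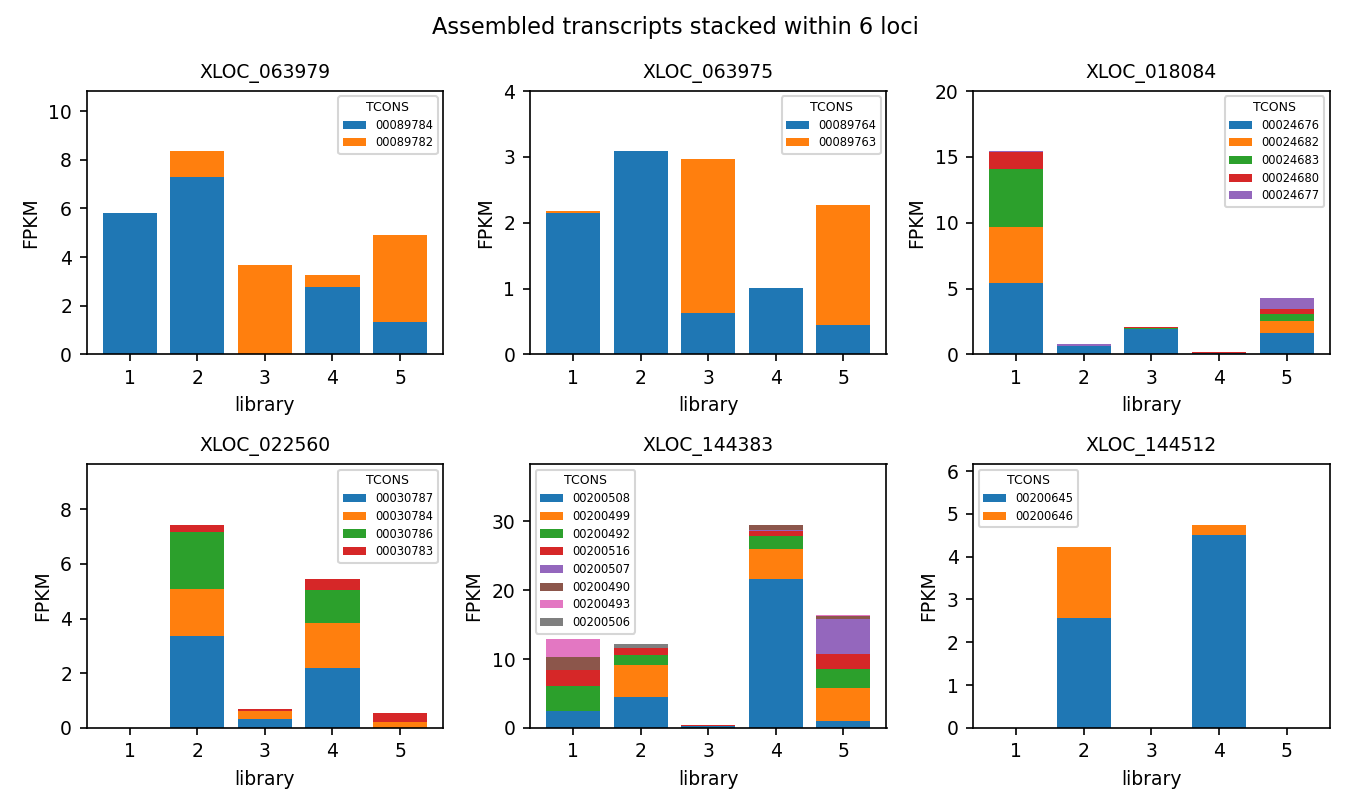
FPKM of the assembled transcripts of 6 loci stacked by library, with 1 colour per transcript, each panel on its own linear axis from 0. The 2 upper left loci lie in ERBB4 and change colour between libraries, while XLOC_022560 and XLOC_144512 have tall bars in libraries 2 and 4.

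Across the set the libraries were not alike. Of the 55 members at a mean of 1 FPKM or more, 26 (47.3%) were highest in library 1 and 26 (47.3%) lowest in library 4. Of annotated transcripts at that level, 24.0% were highest in library 1 and 22.3% lowest in library 4. From 1 to 10 FPKM the shares were 46.2% and 44.2% for members, beside 27.6% and 22.6% for annotated transcripts. The median deviation of the 55 members from their own mean was 0.29, 0.15, -0.10, -0.26 and -0.01 in libraries 1 to 5, on the log2 scale. For annotated transcripts it stayed between -0.01 and 0.03, and for those from 1 to 10 FPKM between -0.02 and 0.06. Members stood higher in library 1 than in library 4 in 41 of 55 cases (74.5% against 49.9%). For the 19 members at 1 FPKM or more in every library the median ratio of library 1 to library 4 was 1.495, and 15 were above 1.

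The lean was seen in members inside protein-coding genes, where 18 of 33 were highest in library 1 and 17 lowest in library 4. It was not confined to them. Of 11 members with no RefSeq gene over 50% of the span, 4 were highest in library 1 and 6 lowest in library 4. Of 3 pseudogene members, 2 were highest in library 1 and 2 lowest in library 4. Of 7 scaffold members, 2 were highest in library 1 and none was lowest in library 4. Among the nearest annotated genes of the 55 members, 31 had a mean of 1 FPKM or more. Of these, 5 were highest in library 1 (16.1%) and 11 lowest in library 4 (35.5%), with median deviations of -0.02 and -0.08 there. Summing members within loci gave 22 of 50 highest in library 1 and 25 of 50 lowest in library 4. After rescaling by median-ratio size factors, 37.0% were highest in library 1 and 46.3% lowest in library 4. Members are not independent samples, and each library is 1 animal, so no test was made. Library 4 also had the highest mitochondrial share of summed FPKM, 15.3% against 10.3% to 11.97% in the others, and library 1 the highest leukocyte and fibroblast sums given above. The part of either in the pattern was not tested.

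**Figure D5:**
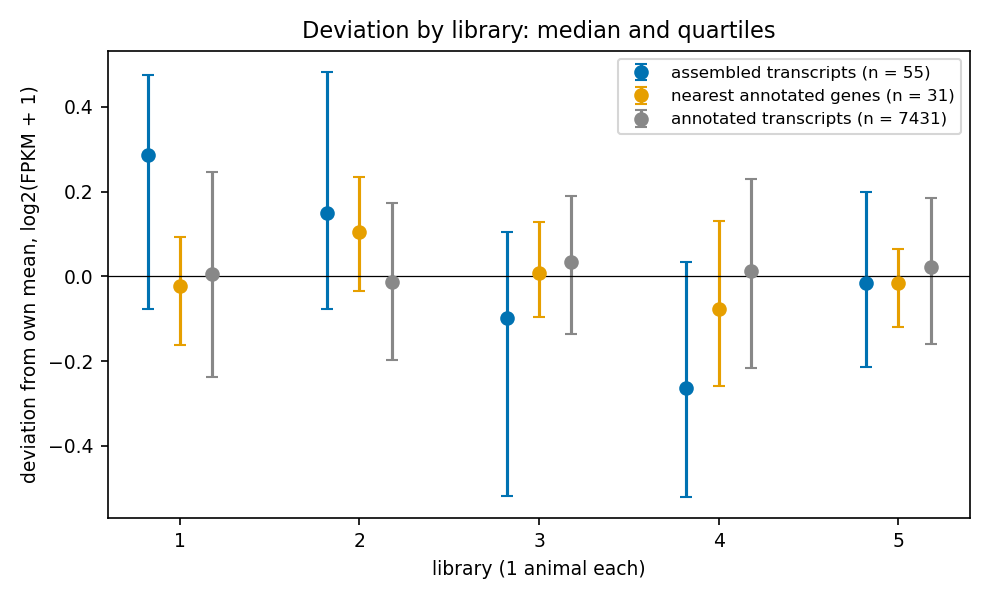
Deviation of log2(FPKM + 1) from a transcript's or gene's own mean in each library, as median (point) and quartiles (bars), for 55 assembled transcripts, 31 of their nearest annotated genes and 7431 annotated transcripts at a mean of 1 FPKM or more. The median of the assembled transcripts falls from 0.29 in library 1 to -0.26 in library 4, while the annotated transcripts stay near 0.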

How the data were processed

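The deposited values were FPKM, given by the authors per transcript and library, per the file headers. The submitters' processing notes name DESeq2 1.10.1, HTSeq 0.6.0 and the build UMD3.1, with no role for any. The aligner, the assembler and the program behind the FPKM values are not given in the sources used here. FPKM divides by transcript length and library size, how reads shared by overlapping models were divided is not given, and an exact 0 can be a failed estimate. The replicate number is that of the labels, and p-values measure the spread between the 5 animals.

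The 136 members were the rows with a TCONS name. Members, lists and comparisons were chosen with earlier results of these data known. Values were log2(FPKM + 1), with a mean of 1 FPKM as the limit of level counts. The nearest gene was the closest annotated gene of another identifier, summed over its listed transcripts. limma 3.58.1 in R 4.3.3 fitted a one-sample moderated test over the whole table (10689 and 5784 transcripts), with Benjamini-Hochberg adjustment and 0.05 as threshold. The exact two-sided sign-flip test over 5 libraries cannot go below p = 0.0625. On simulated data for the nearest-gene comparison (10689 transcripts), limma called 0.105% of unchanged rows, 47% of those changed by 1 and 80% of those changed by 2 on the log2 scale. There 10489 rows were unchanged and 100 were changed by each amount, whereas most real rows were called. The adjustment is stricter with so few changed rows, so these rates do not carry over to the data. A RefSeq table of ARS-UCD2.0 supplied gene names and neighbours; 7384 of 7408 genes matched by symbol (99.7%) overlapped their place there. Named members were the 10 of highest mean, the 10 of greatest SD at a mean of 1 FPKM or more, the 5 of smallest SD at 10 FPKM or more (only 3 qualified) and those with a library set apart by Dixon's gap ratio (limit 0.71 for 5 libraries). Items withheld from the text are not reported here. Other members named were picked after their values were seen. Alternatives covered the pseudocount, filters, scaling, leaving out each library, the test, and the choice of neighbour. Figures were drawn with matplotlib 3.10.9, and tables handled with pandas 2.3.3, scipy 1.17.1 and numpy 2.4.6 in Python 3.11.15.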

Additional observations from a re-analysis of the deposited data

Results flagged for a closer look

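Dixon's gap ratio was above its limit of 0.71 for 5 of 58 values checked (named transcripts, their neighbours, loci with 2 or more members and the set's share of summed FPKM). Chance alone flags about 1 in 20 groups. Members named for this ratio or for a great SD were among the 58, so the count cannot be set against that rate. TCONS_00200507, on a scaffold, had a ratio of 0.973 because library 5 (4.98 FPKM) stood above 4 libraries at or near 0. TCONS_00024683, in LONRF2, had a ratio of 0.747, with library 1 at 4.44 FPKM. The summed locus XLOC_144383 had a ratio of 0.725, with library 3 low at 0.458 FPKM. Among neighbouring annotated genes, ENSBTAG00000047946 had a ratio of 1.0, with 0.165 FPKM in library 5 and 0 in the others. SGO1 had a ratio of 0.805, with 0.278 FPKM in library 1 against 0.0763 to 0.113 in the others. Over all members at a mean of 1 FPKM or more, 3.64% had a library set apart, against 8.30% of annotated transcripts.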

How the results depend on the processing

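No paired analysis was possible because the series has 1 group. The count of 55 members at the limit became 5 at a mean of 5 FPKM, 19 with 1 FPKM asked of every library, and 128 after conversion to TPM, a setting added after seeing the data. The median SD of 0.42 became 0.32, 0.27 and 0.80 under these, 0.37 with no filter, 0.66 with a pseudocount of 0.1, and 0.48 for XLOC members only (also added). It ran from 0.35 (without library 4) to 0.46 (without library 1). Members higher than their nearest gene (10) became 22 of 136 with no filter, 1 at 5 FPKM and 4 with neighbours within 10 kb; those lower (83) became 40 and 17 under the last 2 settings. Higher than the rest of their gene (4) became 0 at 5 FPKM, and lower (33) became 8, or 13 against the most abundant single transcript. Shares over the whole table under these settings are not given. The exact sign-flip test called 0 in each comparison, adjusted or not, since its smallest p is 0.0625.

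TCONS_00200508 against its nearest gene (0.22) turned to -0.0076 with a pseudocount of 0.1, and ran from -0.49 (without library 4) to 0.55 (without library 3); against the rest of its locus (-0.80) it turned to 0.53 against a single transcript. TCONS_00206035 against the rest of its locus (0.05) turned to -0.074 with that pseudocount, -0.03 without library 1 and -0.11 without library 2, and reached 0.31 without library 4. None of these 3 comparisons was called. TCONS_00124875, called lower than the rest of its gene (-0.84), turned to 0.070 against its most abundant single transcript. With symbol-only neighbours TCONS_00006790 turned to -1.72. Of the recomputed values of single members, 650 were counted as unchanged, 56 lost the call and 8 reversed. The 650 include mean levels, which counted as unchanged when they moved by no more than their SD. Leaving out 1 library cannot move a mean that far, so the 650 is no measure of how firm the calls were. The causes of these changes were not tested. Unknown depth limits what the values near 0 can show.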
